A study of Mus musculus with 19 samples.

Results

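Glycolysis and lactate export genes are described here across 4 groups of mice, from tongue epithelium profiled by RNA sequencing. The set holds Slc2a1, Hk1, Hk2, Pfkp, Aldoa, Pgk1, Eno1, Pkm, Ldha and Slc16a3. These 10 of the 24689 gene symbols in the deposited table were chosen by name, for their place on the route from glucose import to lactate export. Earlier results of these data were known at that choice. All 10 passed the filter on low values, and 22745 genes were tested.

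In the study, the human papillomavirus oncogenes E6-E7 and a constantly active YAP1 were switched on in the tongue of adult mice, alone or together. RNA of the whole dissected epithelium was taken 15 days after induction, with no sorting of transgenic cells stated. The 19 mice were 8 to 16 weeks old. Each received 3 doses of tamoxifen into the tongue, given every other day, and a doxycycline diet from the first day.

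N mice (n = 5) are the controls, and N mice 1 to 3 carry the regulatory alleles Krt14-CreERT and LSL-rtTA. N mouse 4 carries LSL-rtTA and lacks Krt14-CreERT. N mouse 5 carries Krt14-CreERT with both effectors, tetON_E6-E7 and tetON_YAP1S127A, and lacks LSL-rtTA. E mice (n = 5) add tetON_E6-E7 to the regulatory alleles, Y mice (n = 3) add tetON_YAP1S127A, and EY mice (n = 6) add both. The methods of the study also list the reporter tetON_H2B-GFP. Recombination depends on the Krt14 promoter, which is active in basal cells of stratified epithelium, and the share of cells that carried active transgenes was not measured in these data.

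Glycolysis splits glucose into pyruvate in the cytosol and yields ATP without oxygen. Lactate dehydrogenase turns pyruvate into lactate and restores the NAD+ that the pathway uses, and monocarboxylate transporters carry lactate out of the cell together with a proton. Growing epithelium and many squamous carcinomas use this route heavily, and the hypoxia-inducible factors (HIF) are well-known regulators of most of its genes.

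Between 8269674 and 11007304 reads per mouse were recovered from the deposited transcripts per 1000000 (TPM), with medians of 9637779 in N mice, 8848776 in E mice, 8679053 in Y mice and 9448942 in EY mice. The labelled tissue was checked against epithelial genes. Krt13, a keratin of the upper layers of oral epithelium, was the most abundant of 7 epithelial genes at 71110 ± 15510 TPM (SD, n = 5) in N mice, and the basal keratin Krt14 was at 6048 ± 1653 TPM. In EY mice Krt13 fell by 1.75 on the log2 scale (adjusted p = 6.16e-05, limma with Benjamini-Hochberg adjustment, lower than every N mouse in 6 of 6) and Krt14 rose by 1.43 (adjusted p = 0.000402, 6 of 6). The summed TPM of the 7 epithelial genes averaged 108700 in N mice, 97660 in E mice, 80000 in Y mice and 52650 in EY mice. Most of this sum in N mice is Krt13 and Krt4, which averaged 71110 and 28550 TPM in N and 20860 and 8976 TPM in EY mice. Krt5, Epcam and Cdh1 had higher means in EY than in N mice, and Trp63 averaged 7.69 TPM in both. In whole epithelium, fewer cells of a type and less RNA per cell cannot be told apart.

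Group differences were tested for all 22745 genes with limma on log2(TPM + 0.1). Genes are said to rise or fall at a Benjamini-Hochberg adjusted p below 0.01, and are called differentially expressed (DEG) where the log2 fold change also exceeds 1 in size. Shares of a gene within its family are held to a looser threshold, an adjusted p below 0.05 in exact permutation tests. The lowest adjusted p of a share in these tests was 0.0271. Over all tested genes the log2 fold change against N had a median of 0.33 for EY mice, 0.13 for Y mice and 0.07 for E mice. Median-of-ratios scaling, which sets each mouse to the typical ratio of its genes to their means, moved these medians to 0.011, -0.033 and -0.024. Changes of the members after this scaling are given as scaled values, relative to that shift.

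Promoter sequences are shown first, as a description of the set. RefSeq promoters of the mouse build GRCm38.p6 matched 10 of 10 members, in 17 windows of 250 bases upstream of annotated starts. Both strands were searched for ACGTG and GCGTG, the core letters that HIF binds. One or both were in windows of 10 of 10 members and in 14 of 17 windows, against 38.6% of 32817 windows of all genes. Counted per gene, 41.5% of 26994 genes had such a window. ACGTG was in windows of 7 members (18.5% of genes) and GCGTG in those of 5 members (30.8%), or in 8 and 7 of the 17 windows (16.6% and 28.1% of all windows). The E-box CACGTG, which contains ACGTG on both strands, was in a window of 1 member (6.86% of genes), CATTCC (the TEAD motif) in those of 2 (14.4%) and TGANTCA (the AP-1 motif) in those of 1 (7.82%). Median GC content was 66.4% in the member windows and 52.4% in all windows. These matches are descriptions of letters that were not weighed against GC content or the number of windows per gene. Whether they bear on the changes of the members was not tested.

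The 4 windows printed are those of the first and last step and of the members with the most ACGTG on either strand among those that rose in both Y and EY mice. The windows were thus picked in part for holding ACGTG. They run 5′ to 3′ on the strand of the gene, and capitals mark ACGTG or GCGTG as read on either strand. The window of Slc2a1 lies at chr4:119108495-119108744 on the plus strand, that of Pgk1 at chrX:106186850-106187099 on the plus strand, the first of 2 for Ldha at chr7:46845554-46845803 on the plus strand, and that of Slc16a3 at chr11:120948817-120949066 on the plus strand.
Slc2a1: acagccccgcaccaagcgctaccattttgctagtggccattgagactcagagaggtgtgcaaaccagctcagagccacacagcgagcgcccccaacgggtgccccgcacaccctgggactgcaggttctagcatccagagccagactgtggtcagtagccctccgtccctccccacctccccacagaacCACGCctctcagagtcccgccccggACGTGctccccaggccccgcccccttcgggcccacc
Pgk1: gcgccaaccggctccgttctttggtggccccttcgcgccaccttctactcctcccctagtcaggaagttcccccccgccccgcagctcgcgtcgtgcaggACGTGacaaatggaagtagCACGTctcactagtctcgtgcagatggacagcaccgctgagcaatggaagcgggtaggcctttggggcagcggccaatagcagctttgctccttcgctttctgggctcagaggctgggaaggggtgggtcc
Ldha: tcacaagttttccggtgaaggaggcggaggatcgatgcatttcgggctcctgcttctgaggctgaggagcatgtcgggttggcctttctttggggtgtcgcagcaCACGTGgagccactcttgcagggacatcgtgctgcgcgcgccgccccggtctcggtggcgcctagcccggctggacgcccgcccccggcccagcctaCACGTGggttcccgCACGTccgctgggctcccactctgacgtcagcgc
Slc16a3: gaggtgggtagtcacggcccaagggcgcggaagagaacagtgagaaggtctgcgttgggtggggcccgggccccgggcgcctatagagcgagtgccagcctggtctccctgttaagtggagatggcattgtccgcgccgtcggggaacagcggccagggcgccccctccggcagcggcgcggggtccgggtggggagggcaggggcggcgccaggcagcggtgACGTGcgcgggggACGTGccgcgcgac
The Ldha window holds ACGTG 5 times over both strands, of which 4 come from 2 copies of CACGTG. Slc16a3 has 2 copies, the nearer beginning 14 bases before the start, Pgk1 has 2, and Slc2a1 has 1 ACGTG and 1 GCGTG. Letters in these windows say nothing of binding in the tongue.

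Glucose enters epithelial cells mainly through Slc2a1 (GLUT1), the widely expressed transporter of the plasma membrane. N mice 1 to 5 were at 17.1, 10.3, 8.81, 8.94 and 10.2 TPM, and E mice 1 to 5 at 13.2, 15.5, 11.8, 13.9 and 20.2 TPM. Y mice 1 to 3 were at 32.2, 13.1 and 26.0 TPM, while EY mice ranged from 26.3 to 73.3 TPM with a median of 36.9. N mouse 1 stood high in its group and Y mouse 2 lay inside the N range, but every EY mouse lay above every N and every E mouse. Slc2a1 rose in EY mice by 1.93 on the log2 scale (SE 0.28, adjusted p = 2.10e-05 by limma with Benjamini-Hochberg adjustment), or 1.56 scaled. Its log2 fold change of 1.04 in Y mice (adjusted p = 0.0405, above every N mouse in 2 of 3) and 0.45 in E mice (adjusted p = 0.539, 1 of 5) did not pass.

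Slc2a3 (GLUT3) is a transporter with high affinity for glucose, best known from neurons, leukocytes and tumours. It was close to absent in controls, with 1 to 38 reads and 0.0892 ± 0.116 TPM in N mice, 0.152 ± 0.0594 in E mice, 2.76 ± 1.89 in Y mice and 17.6 ± 9.34 TPM in EY mice. Its log2 fold change against N was 6.54 in EY (adjusted p = 3.12e-09 by limma, 6 of 6 mice) and 3.88 in Y mice (adjusted p = 7.12e-05, 3 of 3). The size of these folds depends on the pseudocount, and the EY value ranged from 3.95 to 8.09 over the alternatives. Slc2a3 was also higher in EY than in Y mice, by 2.66 (adjusted p = 0.00300, 6 of 6), or 2.48 scaled.

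With this rise the mix of both transporters changed. Slc2a1 supplied 99.4% ± 0.620 of the TPM of Slc2a1 plus Slc2a3 in N mice, 99.0% ± 0.450 in E mice, 89.6% ± 5.04 in Y mice and 71.9% ± 7.12 in EY mice. EY mouse 3 kept 85.8%, and the other EY mice had between 66.6% and 72.5%. The share was lower in EY than in N mice by a difference of -27.5 percentage points (p = 0.00433 in a two-sided exact permutation test, 0.0271 after adjustment over 25 tests of shares, lower in 6 of 6). A like difference of -27.1 points separated EY from E mice (exact adjusted p = 0.0271). For 3 Y against 5 N mice the difference of -9.72 points reached the smallest exact p that this design allows, 0.0357, which does not pass after adjustment (0.0812). Between EY and Y mice the exact p was 0.0476 (adjusted 0.0850). With only the 3 N mice that carry both regulatory alleles the difference from N was -27.2 points (exact adjusted p = 0.119), and without N mouse 3 or N mouse 5 it was -27.5 and -27.4 (0.0595 each time). It passed without N mouse 1, 2 or 4 (0.0476 each time). The EY against E difference, with the same mice, had an adjusted p of 0.0541 in the fits where the call was lost, since the adjustment runs over all 25 tests.

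**Figure D1:**
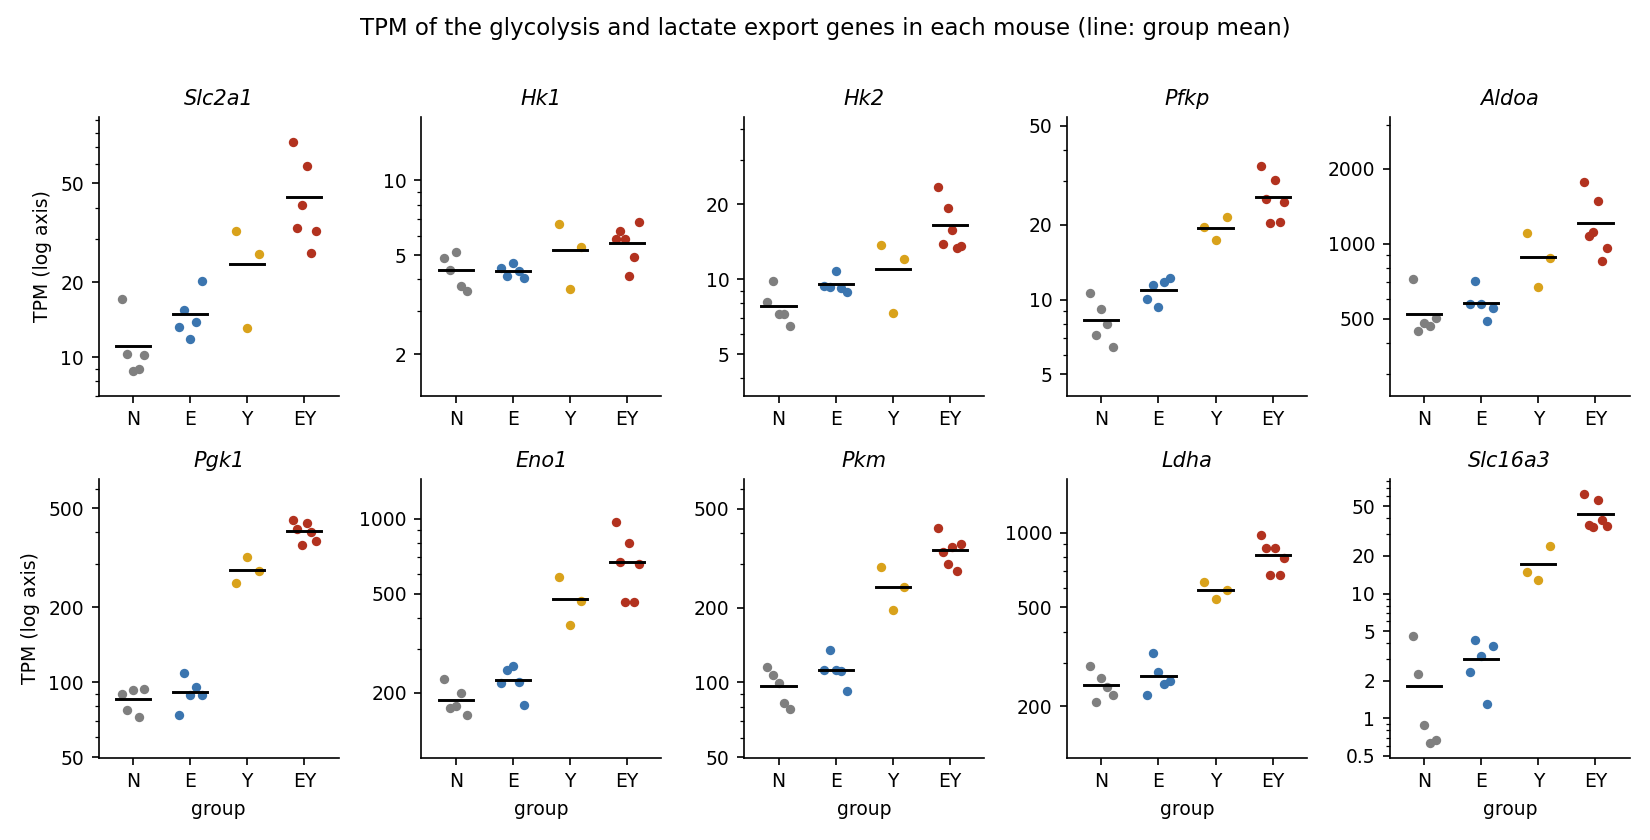
Level of each of the 10 genes in each mouse, in TPM on a log axis, by group (5 N, 5 E, 3 Y and 6 EY mice), with each point a mouse and each line a group mean. Slc16a3 spans the widest range, from 0.635 TPM in N mouse 4 to 62.6 TPM in an EY mouse, while the Hk1 panel stays between 3.59 and 6.81 TPM with its groups overlapping.

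Hexokinases trap glucose in the cell as glucose phosphate. Hk2, the inducible form that attaches to mitochondria, was at 8.13, 9.80, 7.22, 7.22 and 6.50 TPM in N and at 9.39, 9.34, 10.8, 9.21 and 8.90 TPM in E mice. Y mice were at 13.7, 7.30 and 12.1 TPM, and EY mice from 13.3 to 23.4 TPM with a median of 14.8. The EY range began above the highest N and E mouse, whereas Y mouse 2 sat among the N mice. Hk2 rose in EY mice by 1.06 (SE 0.17, adjusted p = 7.17e-05, limma), or 0.69 scaled (adjusted p = 0.00236), so the fold is below the DEG limit of 1 after scaling, and it was 0.95 without EY mouse 1. In Y mice the log2 fold change was 0.47 (adjusted p = 0.144, 2 of 3 above every N mouse). Against E mice Hk2 was higher in EY by 0.76 (adjusted p = 0.00193), a call that ends after scaling (0.50, adjusted p = 0.0229).

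Hk1, the form of most resting tissues, was the member that passed in no comparison. It averaged 4.36 ± 0.681 TPM in N mice, 4.32 ± 0.246 in E mice, 5.25 ± 1.53 in Y mice and 5.61 ± 0.959 TPM in EY mice, with all 4 groups overlapping. Its log2 fold change in EY mice was 0.35 (adjusted p = 0.0806 by limma, above every N mouse in 4 of 6), and it turned to -0.02 after scaling. Hk2 made up 64.0% ± 3.97 of both hexokinases in N and 74.2% ± 5.58 in EY mice, a difference of 10.1 points that did not pass (exact permutation p = 0.0130, adjusted p = 0.0541). It passed as a share of recovered reads (12.1 points, exact adjusted p = 0.0464) and without N mouse 2 (11.4 points, 0.0476).

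Phosphofructokinase commits sugar to glycolysis, and Pfkp is its platelet-type subunit. N mice were at 10.6, 7.20, 9.17, 7.96 and 6.47 TPM, E mice at 10.1, 11.4, 9.30, 11.8 and 12.2 TPM and Y mice at 19.5, 17.3 and 21.5 TPM. EY mice ranged from 20.4 to 34.3 TPM with a median of 25.02. No Y or EY mouse overlapped the N or E mice, and 3 of 5 E mice lay above every N mouse. Pfkp rose by 1.63 in EY (SE 0.15, adjusted p = 1.28e-07, limma) and by 1.23 in Y mice (SE 0.18, adjusted p = 0.000166), with scaled values of 1.26 and 1.04. The E value of 0.41 had an unadjusted limma p below 0.05 and an adjusted p of 0.183.

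The liver-type subunit Pfkl rose in EY mice too (1.38, adjusted p = 6.87e-05 by limma, 6 of 6), and the muscle-type Pfkm had a log2 fold change of -0.52 (adjusted p = 0.149). Pfkp made up 35.8% ± 4.54 of the TPM of the 3 subunits in N mice, 40.7% ± 5.74 in E mice, 43.8% ± 3.89 in Y mice and 43.1% ± 3.24 in EY mice. The EY difference from N of 7.31 points did not pass (exact permutation p = 0.0173, adjusted p = 0.0618). It passed as a share of recovered reads (8.90 points, exact adjusted p = 0.0361) and without N mouse 4 (8.88 points, 0.0476).

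Aldolase splits the sugar into triose phosphates, and Aldoa was the most abundant member, with a mean of 811 TPM over the mice. N mice were at 723, 446, 479, 467 and 504 TPM and E mice at 570, 710, 571, 491 and 554 TPM. Y mice were at 1105, 669 and 874 TPM, and EY mice from 849 to 1768 TPM with a median of 1093. N mouse 1 and Y mouse 2 overlapped, and the lowest EY mouse lay above N mouse 1. Aldoa rose in EY mice by 1.18 (SE 0.19, adjusted p = 6.38e-05, limma), or 0.80 scaled (adjusted p = 0.00398), which is below the DEG limit. In Y mice the log2 fold change of 0.75 did not pass (adjusted p = 0.0319, 2 of 3 mice).

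Pgk1 encodes the phosphoglycerate kinase of the first ATP-forming step. N mice were at 89.6, 77.7, 93.2, 72.5 and 94.2 TPM, E mice at 73.9, 109, 89.2, 95.7 and 88.5 TPM and Y mice at 251, 320 and 280 TPM. EY mice ranged from 357 to 449 TPM with a median of 408. E and N mice overlapped, every Y mouse was above every N and E mouse, and every EY mouse was above every Y mouse. Pgk1 rose by 2.25 in EY (SE 0.10, adjusted p = 1.03e-10) and by 1.73 in Y mice (SE 0.13, adjusted p = 3.59e-07, limma), with scaled values of 1.87 and 1.53. Its E value was 0.09, and -0.02 scaled.

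Enolase and pyruvate kinase catalyse the last steps before lactate. Eno1 was at 227, 173, 177, 199 and 163 TPM in N, at 220, 247, 256, 222 and 178 TPM in E and at 585, 374 and 466 TPM in Y mice. EY mice ranged from 463 to 971 TPM with a median of 666, and Y and EY mice overlapped each other but not N or E mice. Eno1 rose by 1.80 in EY (SE 0.18, adjusted p = 4.26e-07) and by 1.32 in Y mice (SE 0.22, adjusted p = 0.000512, limma), or 1.42 and 1.12 scaled. Pkm, from which the M1 and M2 forms of pyruvate kinase are spliced and which a gene table cannot split, was at 115, 107, 99.4, 82.5 and 78.2 TPM in N and at 291, 196 and 241 TPM in Y mice. E mice had 92.6 to 135 TPM, and EY mice 281 to 418 TPM with a median of 343. Again Y and EY mice overlapped each other and no Y or EY mouse reached down to the N or E mice. Pkm rose by 1.82 in EY (adjusted p = 1.23e-08) and by 1.33 in Y mice (adjusted p = 3.80e-05, limma), or 1.45 and 1.13 scaled.

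Several of these genes have near copies, or neighbours that overlap them. Eno1b, a near copy of Eno1, was at 66.7, 0.190, 0.208, 0.480 and 45.6 TPM in N mice, 0.178, 79.6, 0.643, 1.30 and 50.9 TPM in E mice, at most 2.12 TPM in Y mice, and at 3.04, 176, 130, 215, 127 and 4.23 TPM in EY mice. Within N, E and EY mice it was near 0 in some and far higher in others, and its mean equalled 12.04% of Eno1 in N mice, 11.8% in E mice, 0.367% in Y mice and 16.2% in EY mice. The sum of both averaged 211 TPM in N mice, 251 in E mice, 477 in Y mice and 781 TPM in EY mice. Near copies of Aldoa, Pgk1 and Ldha reached at most 1.85% of their member in any group. Of the members, 6 overlap another annotated gene, 8 such genes in all and 6 of them on the opposite strand, and the strand setting of the counting is not stated. In EY mice the log2 fold change of Gm12868 across from Slc2a1 was 1.94, that of Pitrm1 across from Pfkp 1.77, of Tlcd3b across from Aldoa 1.28 and of Gm49759 on the strand of Pkm 1.21. The other 4 did not pass by limma: Gm12867 across from Slc2a1 (0.49, adjusted p = 0.443), Mir1957a on the strand of Slc2a1 (0.63, adjusted p = 0.414), Hk1os across from Hk1 (-0.31, adjusted p = 0.476) and Gm17034 across from Hk2 (-0.37, adjusted p = 0.456). How many reads such pairs share was not tested.

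Ldha encodes the lactate dehydrogenase subunit that favours lactate formation. N mice were at 290, 208, 260, 240 and 223 TPM, E mice at 222, 329, 275, 247 and 253 TPM and Y mice at 632, 541 and 589 TPM. EY mice ranged from 672 to 979 TPM with a median of 829. The N and E mice overlapped, and above them the 3 Y mice and then the 6 EY mice followed without overlap. Ldha rose by 1.73 in EY (SE 0.12, adjusted p = 7.32e-09) and by 1.27 in Y mice (SE 0.15, adjusted p = 2.19e-05, limma), or 1.35 and 1.07 scaled. Ldhb, the subunit that favours pyruvate, was at 2.71 ± 1.50 in N and 2.60 ± 1.32 TPM in EY mice (log2 fold change -0.07, adjusted p = 0.895). Ldha was already 98.9% ± 0.770 of both subunits in N mice and 99.7% ± 0.201 in EY mice, a difference of 0.815 points (exact permutation p = 0.00866, adjusted p = 0.0433). N mouse 2 had the lowest share, 97.5%. Without that mouse the difference was 0.478 points. The call was lost without any of 4 N mice (2, 3, 4 and 5) and of 5 EY mice (1, 2, 3, 4 and 6) in turn, with exact adjusted p up to 0.0952, and with only the 3 N mice (0.132).

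Slc16a3 (MCT4), the lactate exporter of glycolytic cells, moved furthest among the members. It was at 4.60, 2.27, 0.878, 0.635 and 0.672 TPM in N mice, from 15 to 100 reads each, and at 2.34, 4.24, 3.14, 1.30 and 3.80 TPM in E mice. Y mice were at 14.9, 12.9 and 24.0 TPM, and EY mice from 34.3 to 62.6 TPM with a median of 37.2. N mouse 1 was the highest control, N and E mice overlapped, and the Y and then the EY mice lay above them without overlap. Slc16a3 rose by 4.88 in EY (SE 0.43, adjusted p = 9.73e-08) and by 3.54 in Y mice (SE 0.52, adjusted p = 0.000192, limma), or 4.52 and 3.36 scaled. With only the Y and N mice in the model its adjusted p was 0.0126, the largest of its alternatives, against a smallest of 1.95e-05. In E mice the log2 fold change was 0.98 (adjusted p = 0.314), and no E mouse was above N mouse 1.

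Slc16a1 (MCT1), which carries lactate both ways, was the more abundant of the pair in controls. It was at 16.5 ± 1.66 TPM in N mice, 28.4 ± 3.79 in Y mice and 48.8 ± 8.84 TPM in EY mice, and rose in EY by 1.55 (adjusted p = 6.46e-07, limma, 6 of 6). Its Y value of 0.78 did not pass (adjusted p = 0.0109, 3 of 3). Over 30 alternatives in limma or limma voom, this Y value passed in 6 (lowest adjusted p = 0.00546). Slc16a3 made up 8.97% ± 6.83 of both in N mice, 17.1% ± 6.80 in E mice, 37.3% ± 5.76 in Y mice and 46.8% ± 5.78 in EY mice. The EY share was higher than that of N by 37.9 points and than that of E by 29.8 points (exact permutation p = 0.00433 and adjusted p = 0.0271 for each). With only the 3 N mice the difference from N was 34.7 points (exact adjusted p = 0.119), and without N mouse 3 or N mouse 5 it was 36.9 and 36.8 (0.0595 each time), where the EY against E difference had an adjusted p of 0.0541. Both passed without N mouse 1, 2 or 4 (0.0476). Bsg, the chaperone that brings both transporters to the membrane, rose by 0.93 in EY (adjusted p = 1.15e-07, limma) and by 0.69 in Y mice (adjusted p = 0.000167), or 0.55 and 0.49 scaled.

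**Figure D2:**
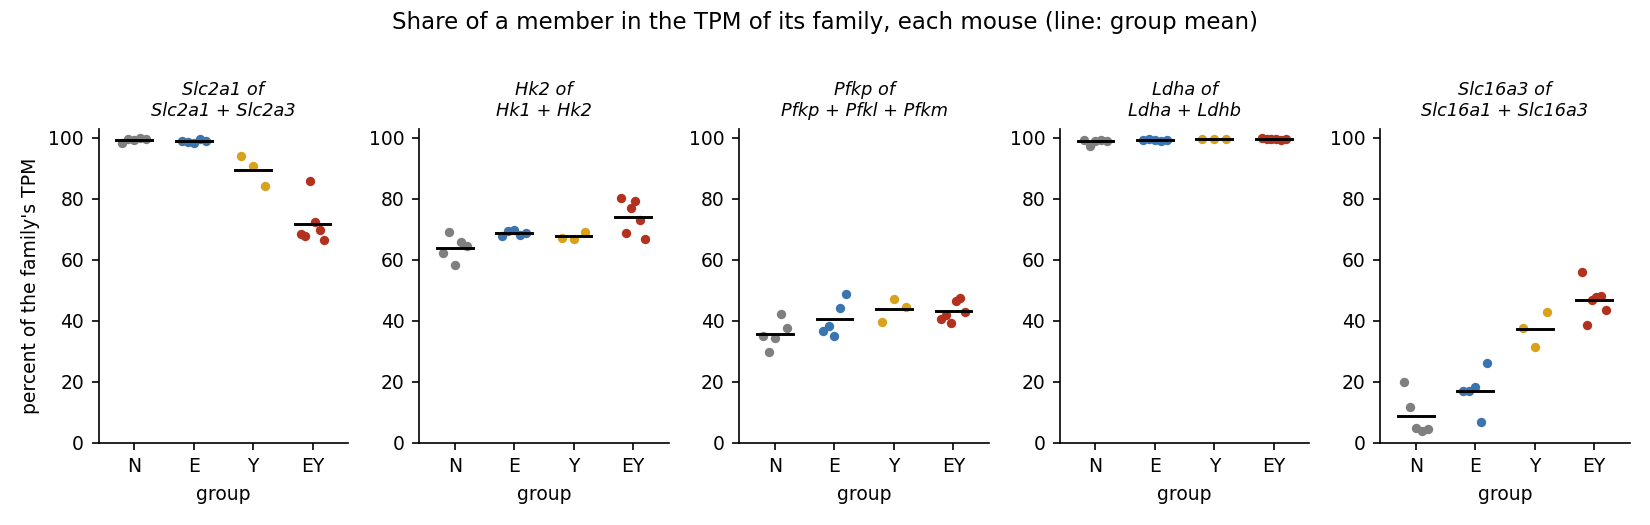
Share of a member in the summed TPM of its family, in percent, for each mouse by group (points, with lines at group means): Slc2a1 of Slc2a1 plus Slc2a3, Hk2 of 2 hexokinases, Pfkp of 3 subunits, Ldha of 2 subunits and Slc16a3 of 2 transporters. Slc2a1 falls from a mean of 99.4% in N mice to 71.9% in EY mice, and Slc16a3 climbs from 8.97% to 46.8%.

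Counted over the set, 9 of the 10 genes were DEGs that rose in EY against N mice, where 12.6% of all tested genes were. By adjusted p alone it was also 9 (23.9% of all genes), and 9 had each EY mouse above each N mouse (20.9%). After scaling, 9 passed the adjusted p (13.5%), of which 7 had a log2 fold change above 1 (6.77%). The median log2 fold change was 1.76 over the 10 members and 0.33 over all genes, or 1.38 and 0.011 scaled. The 10 genes together made up 0.105% to 0.149% of all TPM in N and 0.278% to 0.478% in EY mice.

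In Y against N mice 6 members were DEGs that rose (3.47% of all genes), namely Pfkp, Pgk1, Eno1, Pkm, Ldha and Slc16a3. The count was 6 by adjusted p alone (7.17%), 6 after scaling (3.90%) and 6 for groups without overlap (15.5%). The other 4, Slc2a1, Hk1, Hk2 and Aldoa, had log2 fold changes from 0.23 to 1.04 that did not pass, and Y mouse 2 was the lowest Y mouse in 9 of the 10 members. Members had a median of 1.25 against 0.13 for all genes, or 1.06 and -0.033 scaled. Both comparisons share the N mice.

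E against N mice gave 0 members by limma as DEGs (1.16% of all genes), 0 by adjusted p alone (1.71%), 0 without overlap (3.93%) and 0 by limma voom on recovered reads. At an unadjusted p below 0.05 the count was 2 (14.8% of all genes, in either direction), Pfkp and Slc16a3, each higher in E. The median was 0.24 over the members and 0.07 over all genes, or 0.13 and -0.024 scaled. Proliferation genes moved in this comparison: 7 of 7 rose, and Mki67 went from 21.7 ± 4.85 TPM in N mice to 75.1 ± 12.3 in E mice, 74.1 ± 10.2 in Y mice and 157 ± 23.8 TPM in EY mice. Summed over the 7 genes, whose most abundant is Pcna, proliferation markers were at 181 to 240 TPM in N mice, 378 to 705 in E mice, 415 to 572 in Y mice and 1050 to 1150 TPM in EY mice. Pcna weighs most in this sum, with means of 336 TPM in E and 243 TPM in Y mice. Means of Mki67, Pcna, Mcm2 and Mcm5 were higher in E mice, and those of Top2a, Ccnb1 and Cdk1 in Y mice. The mean log2 difference of the 10 members from N was 0.17 to 0.50 in E and 0.97 to 1.50 in Y mice. E and Y mice were not compared by a test, and the part of proliferation in the members' changes was not tested.

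**Figure D3:**
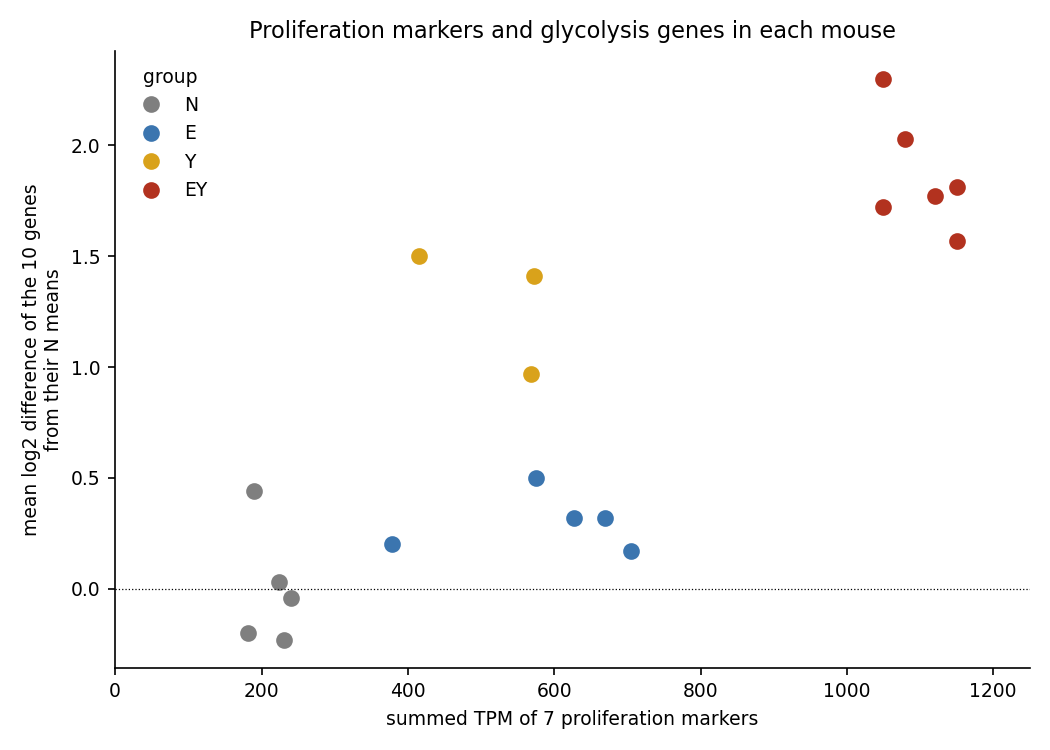
Summed TPM of 7 proliferation markers (x axis) and mean log2 difference of the 10 genes from the N mean (y axis), with a point per mouse coloured by group. E mice lie at 378 to 705 TPM and 0.17 to 0.50, and Y mice at 415 to 572 TPM and 0.97 to 1.50. Pcna weighs most in the x values.

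Against E mice, EY mice had 8 members as DEGs that rose (7.82% of all genes), 9 by adjusted p alone (18.1%), 9 without overlap (17.6%) and 8 after scaling (11.2%, where Hk2 no longer passed). Hk1 was the member that did not pass (0.35, adjusted p = 0.0909 by limma). The median over the members was 1.51, against 0.26 for all genes. Without E mouse 4, EY mouse 1 or EY mouse 4 in turn, 7 were DEGs.

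Against Y mice, EY mice had 0 members as DEGs by limma (1.07% of all genes) and 0 by adjusted p alone (2.34%), while 3 were without overlap (11.1%), Pgk1, Ldha and Slc16a3. At an unadjusted p below 0.05 there were 8 (23.9% of all genes, in either direction), each higher in EY, and limma voom called 1 by adjusted p (2.37% of all genes), Slc16a3 (log2 fold change 1.27, adjusted p = 0.00326). The median over the members was 0.48, against 0.18 for all genes, or 0.31 and 0.020 scaled. Pgk1 came closest in limma with a log2 fold change of 0.52 (adjusted p = 0.0132, 6 of 6 mice), or 0.34 scaled (adjusted p = 0.147). It passed without E mouse 1 (adjusted p = 0.00777) and after quantile normalization (0.00120), and over the alternatives this adjusted p spanned 0.00120 to 0.147. Slc16a3 had 1.34 (adjusted p = 0.111, 6 of 6) and Slc2a1 0.89 (adjusted p = 0.101, 5 of 6).

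The interaction asks whether the effect of both transgenes differs from the sum of their single effects. It passed for 0 members by limma and by limma voom, and for 0.198% of all genes. At an unadjusted p below 0.05 there was 1 (13.5% of all genes, in either direction), Pgk1, with 0.42 (adjusted p = 0.255). The member values ran from -0.02 for Pfkp to 0.44 for Slc2a1, with a median of 0.29 against 0.08 for all genes. A p that misses the threshold does not show that effects add up.

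Over all tested genes, 23.9% rose and 7.97% fell in EY (13.5% and 13.8% scaled) and 7.17% rose in Y mice (3.90% scaled). The other enzymes of the pathway showed how far the pattern extends. Of 13 tested, 6 rose in EY and 0 fell, at steps that the members leave out and in paralogs of members: Gapdh (1.95), Tpi1 (1.57), Aldoc (1.53), Pgam1 (1.49), Pfkl (1.38) and Gpi1 (1.16). Their scaled count was also 6 (median 1.08 over the 13, or 0.70 scaled). In Y mice 4 rose: Aldoc (1.76), Gapdh (1.42), Tpi1 (1.16) and Pgam1 (1.04, adjusted p = 0.00388 by limma), the last of which did not pass after scaling (adjusted p = 0.0177). Gapdh, a reference gene in many assays, was at 710 ± 159 TPM in N and 2783 ± 764 TPM in EY mice. Those that did not pass in EY mice are mostly tissue-restricted isoforms of muscle, liver and brain.

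Of 11 other genes of glucose and lactate transport, 3 rose in EY mice, Slc2a3, Slc16a1 and Bsg, and 2 fell. Among all genes 23.9% rose, a share near this count, and 7.97% fell. After scaling it was 3 and 3 (13.5% and 13.8% of all genes). The median of the 11 was 0.28, or -0.08 scaled. The 2 that fell were Slc2a12 (GLUT12), from 1.10 ± 0.236 to 0.505 ± 0.151 TPM (log2 fold change -1.02, adjusted p = 0.00614 by limma, 6 of 6 mice), and Slc16a7 (MCT2), at 0.128 ± 0.0410 and 0.0350 ± 0.0296 TPM (-0.77, adjusted p = 0.00644, 6 of 6). The folds of Slc16a7 rest on levels close to the pseudocount. Slc5a1 (SGLT1) in EY against N passed after scaling (-0.76, adjusted p = 0.000231 by limma) and not without it (-0.38, adjusted p = 0.0361). Against Y mice it was lower in EY without scaling (-0.85, adjusted p = 0.00411 by limma). In Y mice 2 rose, Slc2a3 and Bsg, and 0 fell (1 at an unadjusted p below 0.05).

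**Figure D4:**
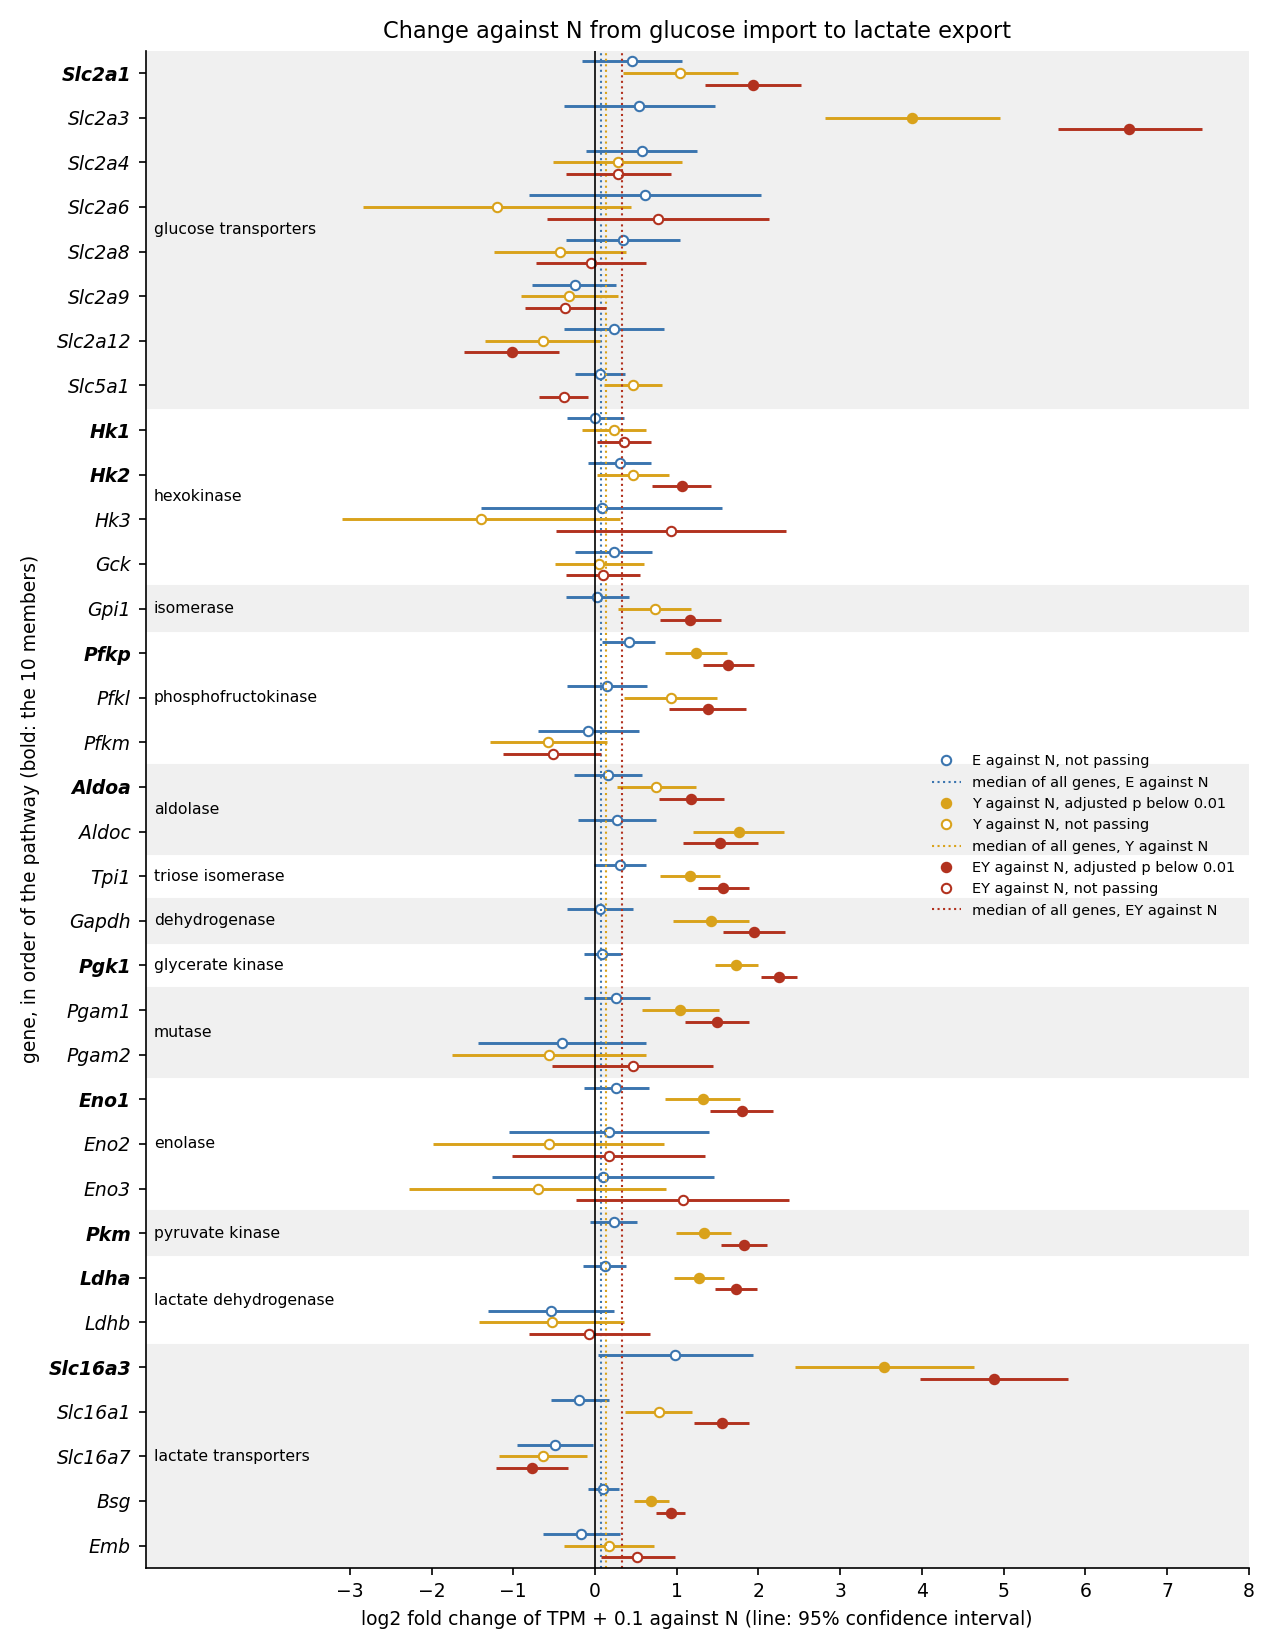
Log2 fold change against N (x axis) with its 95% confidence interval for the members (bold) and the other tested enzymes and transporters, from glucose import at the top to lactate export, in E, Y and EY mice. Filled points have a limma adjusted p below 0.01, and dotted lines mark the medians of all genes (0.07 in E mice, 0.13 in Y mice and 0.33 in EY mice), so that each enzyme step has at least 1 filled EY point, up to 2.25 for Pgk1, and no E point is filled.

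Genes that control glycolysis and the fate of pyruvate gave 12 that rose and 2 that fell of 16 in EY mice (9 and 2 scaled), and 7 and 1 in Y mice (6 and 1 scaled). Among all genes 23.9% and 7.97% did so in EY (13.5% and 13.8% scaled) and 7.17% and 1.34% in Y mice (3.90% and 2.37% scaled). Pfkfb3, which makes the activator of phosphofructokinase, went from 0.582 ± 0.357 TPM in N mice to 1.97 ± 0.471 in Y mice and 4.61 ± 0.790 TPM in EY mice. Its log2 fold changes were 1.75 (adjusted p = 0.00298) and 2.95 (adjusted p = 4.59e-07, limma). Tigar, which degrades that activator, rose as well (1.43 in EY, 1.15 in Y mice), and Pfkfb2 fell by 0.56 in EY mice (adjusted p = 0.00975). On the side of pyruvate, Pdk1, the kinase that shuts pyruvate dehydrogenase, rose by 1.23 in EY and 0.92 in Y mice. Its target subunit Pdha1 rose as well (1.22 and 1.07), as did the mitochondrial pyruvate carrier gene Mpc1 in EY mice (0.78, adjusted p = 0.000651, but 0.0420 after scaling). Pdk3 fell by 0.47 in EY and by 0.94 in Y mice. On the same list, mean levels in N and EY mice were 5.25 and 21.1 TPM for Pdk4, and 1.125 and 0.993 TPM for Pdk2. For Pdp1 they were 8.23 and 15.3 TPM, and for Pdp2 7.57 and 20.8 TPM.

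Hypoxia signalling was followed through genes of the HIF system itself and through its known targets. Of 8 factors and regulators, 2 rose in EY mice and 0 fell, where 23.9% and 7.97% of all genes did. After scaling 1 rose and 4 fell (13.5% and 13.8% of all genes). The rises are thus near the share of all genes. The medians were 0.15 unscaled and -0.22 scaled. Egln3, a HIF hydroxylase that is itself induced by HIF, rose from 18.1 ± 4.67 TPM in N mice to 104 ± 20.1 in Y mice and 84.9 ± 21.9 TPM in EY mice (2.53 and 2.21, adjusted p = 8.51e-06 and 3.67e-07 by limma). Vhl rose by 0.48 in EY mice (adjusted p = 0.00826), a call that ended after scaling (0.10, adjusted p = 0.520). Hif1a had 0.54 (adjusted p = 0.0101, or 0.17 scaled) and Epas1 had -0.63 (adjusted p = 0.0114), which passed as a fall after scaling (-0.99, adjusted p = 0.000305). Over 30 alternatives in limma or limma voom, Hif1a passed in 8 (lowest adjusted p = 0.00484) and Epas1 in 9. HIF protein is set mainly by degradation, which RNA levels do not show.

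Of 13 HIF targets outside glycolysis, 8 rose and 1 fell in EY mice (5 and 1 scaled, median 0.71, or 0.34 scaled), and 3 rose in Y mice (1 scaled). Among all genes 23.9% rose and 7.97% fell in EY (13.5% and 13.8% scaled), and 7.17% rose in Y mice (3.90% scaled). Adm, a vasodilator peptide, went from 20.6 ± 12.4 TPM in N mice to 198 ± 104 in Y mice and 322 ± 213 TPM in EY mice (3.38 and 4.02, adjusted p = 0.000437 and 1.59e-06, limma). Ndrg1 rose by 2.15 in EY mice, Car9, a carbonic anhydrase of the cell surface, by 2.08 (adjusted p = 0.00101), Bnip3 by 1.72 and the angiogenic factor Vegfa by 1.48. In Y mice Vegfa (0.98, adjusted p = 0.00575, but 0.0107 after scaling) and Ndrg1 (1.20, adjusted p = 0.00826, but 0.0235 after scaling) were the less secure calls. Mxi1 fell by 0.88 in EY mice.

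Neighbouring sugar pathways were mixed, beside 23.9% of all genes that rose and 7.97% that fell in EY mice (13.5% and 13.8% scaled). In Y mice these shares were 7.17% and 1.34%. Of 8 pentose phosphate genes 3 rose and 2 fell in EY mice (1 and 2 scaled, median 0.29, or -0.09 scaled), among them the transketolase gene Tkt (1.36) and Pgls, which fell by 0.53. Tkt in Y mice (1.00, adjusted p = 0.00823 by limma) did not pass after scaling (0.0255). Of 12 genes of glycogen and gluconeogenesis 6 rose and 2 fell in EY mice (5 and 2 scaled, median 0.73, or 0.38 scaled), and 2 rose and 1 fell in Y mice. Ugp2 and Pgm2, on the path into glycogen, rose by 1.44 and 1.56 in EY and by 0.82 and 1.04 in Y mice. Fbp2, a fructose bisphosphatase that runs opposite to phosphofructokinase, fell from 12.3 ± 2.75 TPM in N mice to 3.53 ± 1.16 in Y mice and 2.40 ± 1.25 TPM in EY mice (-1.80 and -2.46, adjusted p = 0.00369 and 6.65e-06).

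Over these 7 lists 81 genes were tested. Of the calls named from them, some were lost in part of the 19 models that leave out 1 mouse: in EY mice Pfkfb2 (17), Vhl (10), Slc2a12 (6), Slc16a7 (6) and Pdk3 (5), and in Y mice Tkt (12), Ndrg1 (11), Vegfa (5), Pgam1 (3), Pfkfb3 (2), Tigar (2), Fbp2 (2) and Pgm2 (1). Over all alternatives their adjusted p reached at most 0.0630, for Tkt, except 0.670 for Vhl. Other calls held without each mouse and ended under another alternative: Car9 in EY with only the 3 N mice (adjusted p = 0.0202), Mpc1 in EY after scaling (0.0420) or quantile normalization (0.0509), and Adm and Pdk3 in Y mice with only the groups compared (0.0120 each). In EY mice 40 rose and 9 fell against N (23.9% and 7.97% of all genes), and in Y mice 20 and 2 (7.17% and 1.34%). E mice had 0 and 0 by limma (1.71% and 0.0440%) and by limma voom. At an unadjusted p below 0.05, 6 were higher and 2 lower (14.8% of all genes, in either direction). Between EY and Y mice 2 rose and 1 fell (2.34% and 1.19%), and between EY and E mice 37 and 5 (18.1% and 7.16%). No interaction passed (0 by limma), with 13 positive and 3 negative at an unadjusted p below 0.05 (13.5% of all genes, in either direction). All these counts are unscaled. After scaling, 13.5% of all genes rose and 13.8% fell in EY against N mice. The lists then held fewer rises and more falls, with 4 falls among the HIF factors, where 0 fell unscaled. In Y against N mice 3.90% of all genes rose and 2.37% fell after scaling, and the lists held fewer rises.

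Markers of other cells differed between mice and are given beside the members. Over all tested genes, 23.9% rose and 7.97% fell in EY against N mice. In Y against N mice 7.17% rose and 1.34% fell. At an unadjusted p below 0.05, in either direction, these comparisons had 48.6% and 28.9% of all genes. Skeletal muscle, which makes much Aldoa, lies under the epithelium, and its 14 markers (most abundant Acta1) summed to 27.1 to 364 TPM in N mice, 31.3 to 196 in E mice, 32.6 to 251 in Y mice and 78.3 to 1730 TPM in EY mice. In EY mice 1 to 6 these markers summed to 283, 136, 1730, 78.3, 354 and 235 TPM. Aldoa was at 1768, 1070, 1116, 1488, 849 and 957 TPM in the same order. Of the 14 muscle genes 1 rose in EY mice, and 0 after scaling, but their median log2 fold change was 1.61 against N (1.24 scaled), close to the 1.76 of the members. In EY against E mice their median was 2.19, with 11 of 14 at an unadjusted p below 0.05 (43.6% of all genes, in either direction). In Y against N mice the muscle median was -0.61 and that of the members 1.25. Between EY and Y mice these medians were 2.11 and 0.48. The part of muscle in the members' changes was not tested. Without EY mouse 3 there were again 9 DEGs among the members in EY and 6 in Y mice. That fit keeps the muscle RNA of the other EY mice, with marker sums of 78.3 to 354 TPM.

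Myeloid markers (10 genes, most abundant S100a8, which keratinocytes also make, as they do S100a9) averaged 274 TPM in N mice, 285 in E mice, 808 in Y mice and 730 TPM in EY mice, ranging from 99.9 to 775, 37.8 to 537, 590 to 1010 and 259 to 1060 TPM. Of these, 2 of 10 rose in EY (23.9% of all genes) and 2 of 10 in Y mice (7.17%), S100a8 and S100a9 each time. The median over the 10 was 0.91 in EY and -0.06 in Y mice. The other 8 markers summed to 704 TPM in N mouse 1 and 90.3 to 242 in the other N mice, 32.3 to 504 in E mice, 49.2 to 69.8 in Y mice and 141 to 286 TPM in EY mice. Lyz2 makes up much of these sums, with means of 196 TPM in N and 122 TPM in EY mice. By mean, 6 of the 8 were higher in EY than in N mice, among them Cxcr2 (1.13 and 4.98 TPM) and Csf3r (1.12 and 2.89 TPM). Besides Lyz2, Adgre1 had the lower mean in EY mice (0.303 and 0.281 TPM). None of the 8 passed (0 by limma in either comparison). N mouse 1 had the highest myeloid sum of the controls, 775 TPM, and the highest level of its group in 7 of the 10 members. Without it there were 9 DEGs among the members in EY and 6 in Y mice. Member sums ran from 2779 to 4785 TPM in EY and from 1045 to 1490 TPM in N mice. Slc2a3 is also expressed by leukocytes. In EY mice 1 to 6, Slc2a1 made up 68.6%, 67.9%, 85.8%, 72.5%, 69.8% and 66.6% of the glucose transporter pair. In the same order, the 8 markers without S100a8 and S100a9 summed to 286, 170, 244, 141, 193 and 177 TPM. The part of these cells in the members' changes was not tested.

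Of 7 lymphoid markers tested 1 rose in EY mice and 5 were higher at an unadjusted p below 0.05 (median 1.36, or 1.11 scaled), with sums of 0.599 to 6.54 TPM in N mice, 0.592 to 7.36 in E mice, 1.55 to 5.22 in Y mice and 5.78 to 11.3 TPM in EY mice (most abundant Trac, 1.51 TPM on average). Fibroblast markers (6 genes, most abundant Dcn) summed to 61.5 to 293 TPM in N mice, 57.2 to 104 in E mice, 23.8 to 44.1 in Y mice and 24.2 to 153 TPM in EY mice, and 1 fell in EY. Endothelial markers were near 0, with 4 of 5 below 1 TPM in every mouse, 3 tested and 0 passing in EY mice by limma (0 at an unadjusted p below 0.05). Their most abundant gene, Pecam1, averaged 0.211 TPM, and their sums were at most 1.01 in N mice, 0.917 in E mice, 0.309 in Y mice and 3.39 TPM in EY mice. Erythroid markers (5 genes, most abundant Hba-a1) summed to 40.7 to 365 TPM in N mice, 40.4 to 460 in E mice, 45.8 to 450 in Y mice and 53.6 to 632 TPM in EY mice, with 0 passing by limma (0 unadjusted). The 7 epithelial genes included 4 that rose and 2 that fell in EY mice (3 and 2 scaled). No list had a marker at 0 in every mouse, and the part of each in the members' changes was not tested.

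Some mice led their group in many members. EY mouse 1 was the highest EY mouse in 9 of the 10 genes, and its member sum of 4785 TPM compares with 2779 to 4106 TPM in the other EY mice. N mouse 1 had 1490 TPM against 1045 to 1140 TPM in the other N mice. Among Y mice, Y mouse 1 was highest in 7 genes and Y mouse 2 lowest in 9, but highest in Pgk1. In E mice the highest values were spread over E mouse 2 (5 genes), E mouse 3 (3) and E mouse 5 (2), and the lowest EY values lay mostly in EY mouse 3 (5) and EY mouse 5 (4). Without EY mouse 1, 8 members were DEGs in EY mice and 9 passed the adjusted p.

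Genes outside the lists with the profile nearest to each member were found by the root mean square log2 difference over the 14 E, Y and EY mice, among 15483 genes. The nearest lay at 0.10 for Aldoa (Tlcd3b, which overlaps it, then Actg1 at 0.13 and Sfxn1 at 0.16) and at 0.11 for Pkm (Bri3bp, then Cpox and Fam126a at 0.18). For Ldha they were Phgdh (0.15), Hspd1 and Lrrc59 (0.20), for Pfkp Capg (0.14), Arpc1b (0.17) and Ralb (0.18), and for Eno1 Ruvbl2 (0.16), Ass1 and Bri3bp (0.20). Hk1 was nearest to Ubqln1 (0.12), Clpb (0.13) and Vps26b (0.14), and Hk2 to Slc3a2 (0.18), Srprb (0.21) and Nsmce3 (0.22). Pgk1 was nearest to Capn2 (0.18), Rdh11 (0.19) and Slc25a24 (0.21), and Slc2a1 to Gm12868 (0.23), which overlaps it, Noc4l (0.29) and Gm17035 (0.32). Slc16a3 had no close match, with Plat at 0.56, Pmaip1 at 0.63 and Gm47767 at 0.66. Within the set, Eno1, Pkm and Ldha were nearest to one another, with Pkm at 0.16 from Eno1 and from Ldha, while Slc16a3 lay 2.04 from its nearest member, Pgk1.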

How the data were processed

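RNA of tongue epithelium from 19 mice (5 N, 5 E, 3 Y and 6 EY) was measured by poly(A) RNA sequencing. The authors aligned reads to GRCm39 with STAR 2.7.9, sorted them with SAMtools 1.7, counted them per gene with HTSeq 0.13.5 and used DESeq2 1.34.0 for their own tests. The deposited values are TPM of 24689 gene symbols, each mouse summing to 1000000, and how counts became TPM is not stated. Read counts were recovered from the TPM steps for 24680 of 24680 genes above 0 (tolerance 0.001 of a read), giving 8269674 to 11007304 reads per mouse, and served for depth and for 1 alternative. With this depth Slc16a3 had 15 to 100 reads in each N mouse, and no other member had fewer than 403 reads in any N mouse.

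Groups follow the sample titles, so N mice 4 and 5 stayed in N. The 22745 genes that reached 0.1 TPM in 3 or more mice entered limma 3.58.1 under R 4.3.3 (lmFit, eBayes with trend) as log2(TPM + 0.1), in 1 model with a mean per group and Benjamini-Hochberg adjustment over all genes. EY, Y and E were each set against N, and EY against Y and against E, and an interaction term (EY - E - Y + N) was fitted. DEGs had an adjusted p below 0.01 and a log2 fold change above 1 in size, and intervals are at 95%. For shares within families, mice were permuted between groups in two-sided exact tests (scipy 1.17.1), adjusted over 25 tests, with a threshold of 0.05. Lists are described by counts and medians, with the shares of all genes given beside the pathway lists, for these lists together and for the marker lists. The pathway lists hold other glycolysis enzymes, other genes of glucose and lactate transport, and genes that control glycolysis and pyruvate. They also hold HIF factors, HIF targets outside glycolysis, pentose phosphate genes, and glycogen and gluconeogenesis genes. Marker lists cover skeletal muscle, myeloid, lymphoid, fibroblast, endothelial, erythroid, epithelial and proliferating cells.

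Genes named are the 10 members, genes of these lists where their list is described, and for each member the 3 genes outside the lists, of at least 1 TPM on average, nearest to it over 14 E, Y and EY mice. Near copies of members and genes that overlap them, named for their position, are outside this rule and were chosen after values were seen. The members and lists were chosen with earlier results of these data known. Promoters are RefSeq sequences of GRCm38.p6, matched by symbol. The settings were varied 1 at a time: a pseudocount of 1 or of 0.01 TPM, a filter at 1 TPM or just above 0, quantile normalization, median-of-ratios scaling, limma voom on recovered reads, robust eBayes, a block for mouse number, a model of just the groups compared, N limited to the 3 mice with Krt14-CreERT and LSL-rtTA, an adjusted p below 0.05, shares of recovered reads, and leaving out each mouse. Tables came from pandas 2.3.3 and numpy 2.4.6 under Python 3.11.15, and plots from matplotlib 3.10.9. No sequencing batch is given, the transgenes have no entry in the table, and other assays of the study were left out.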

Additional observations from a re-analysis of the deposited data

Results flagged for a closer look

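In groups of 5 or 6 mice, single mice far from the rest were sought in 63 quantities over N, E and EY mice, 189 groups of values in all. Chance alone flags some groups, at a rate that was not measured in these data. Of the 189 groups 22 stood out, among them 3 of 30 groups of member values. No cause was tested for any of them.

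Among the members, Slc2a1 was at 17.1 TPM in N mouse 1 (8.81 to 10.3 in the other N mice), Aldoa at 723 TPM in N mouse 1 (446 to 504), and Hk2 at 10.8 TPM in E mouse 3 (8.90 to 9.39). The summed TPM of the 10 members was 1490 in N mouse 1 (1045 to 1140). Of the shares, Slc2a1 made up 85.8% of its pair in EY mouse 3 (66.6% to 72.5%) and Ldha 97.5% in N mouse 2 (99.0% to 99.4%).

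Among genes of the other lists, N mouse 1 had 0.293 TPM of Slc2a3 (0.00666 to 0.0607 in the other N mice), and N mouse 4 had 158 TPM of Bsg (192 to 204) and 8.99 TPM of Ndrg1 (13.5 to 14.8). N mouse 2 had 5.33 TPM of Ldhb (1.74 to 2.53) and 48.2 TPM of Pdha1 (38.3 to 39.6), and N mouse 3 had 91.0 TPM of Pgls (65.6 to 71.2). Mpc1 was at 9.79 TPM in E mouse 4 (6.43 to 7.20) and Egln3 at 23.8 TPM in E mouse 3 (12.5 to 15.2). In EY mouse 3, Epas1 was at 2.34 TPM (1.47 to 1.69) and Krt13 at 27600 TPM (18500 to 21100).

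Marker sums stood out in 6 cases. Muscle markers were at 364 TPM in N mouse 2 (27.1 to 95.1), 196 TPM in E mouse 5 (31.3 to 61.1) and 1730 TPM in EY mouse 3 (78.3 to 354). Myeloid markers were at 775 TPM in N mouse 1 (99.9 to 259), endothelial markers at 3.39 TPM in EY mouse 3 (0.259 to 1.04), and erythroid markers at 365 TPM in N mouse 5 (40.7 to 112).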

How the results depend on the processing

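The 9 DEGs among the members in EY against N mice numbered 8 to 9 when each mouse was left out in turn and 7 to 9 under the other alternatives, with 7 after median-of-ratios scaling. By adjusted p the count was 9 under every alternative run. In Y against N mice the 6 DEGs numbered 6 without each mouse and 5 to 7 otherwise (5 with only the groups compared, where the adjusted p of Slc16a3 was 0.0126). For EY against E mice, DEGs numbered 7 to 8 without each mouse and 6 to 8 otherwise. Members called in E against N mice and in the interaction numbered 0 by limma and limma voom under every alternative run.

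Between EY and Y mice the main count of 0 became 1 DEG by limma voom. By adjusted p it became 1 after quantile normalization, 1 by limma voom, and 1 at an adjusted p below 0.05, and ranged from 0 to 1 without each mouse. Of 25 shares, 5 passed; 0 passed with only the 3 N mice of the regulatory genotype, where fewer mice raise the smallest possible p, and 0 to 5 without each mouse, and 7 passed as shares of recovered reads.

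Directions that turned all belonged to changes past no threshold, and the cause was not tested. After median-of-ratios scaling Hk1 was -0.02 in EY against N and -0.06 in EY against Y mice, and Pgk1 -0.02 in E against N mice. Hk1 in E against N, at 0.00 by the main fit, ran from -0.15 to 0.06 over the alternatives (-0.11 after scaling). After quantile normalization Hk1 was -0.05 in EY against Y, Pgk1 -0.01 and Ldha -0.01 in E against N, and Hif1a -0.07 in Y against N mice. The Pfkp interaction was 0.10 with the 3 N mice. Without each mouse in turn, Hk1 ranged from -0.12 to 0.31 in EY against Y mice and from -0.12 to 0.31 for the interaction, below 0 without Y mouse 2. The Slc16a3 interaction ranged from -0.07 (without N mouse 1) to 0.62. The Pfkp interaction ranged from -0.11 to 0.06, above 0 without any of N mice 2 and 5, E mice 4 and 5, Y mouse 3 and EY mice 3 and 5. Ldhb in EY against N ranged from -0.25 to 0.20 without each mouse, above 0 without N mouse 2 or EY mouse 1, 2 or 6. For EY against Y the Pfkp share ranged from -2.75 to 1.10 points without each mouse, at 1.10 without Y mouse 2 and 0.109 without EY mouse 3, and the Ldha share 0.0305 without Y mouse 1 and 0.034 without EY mouse 5.

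With the mouse number as a block, the pairing of mice by number gave 9 DEGs in EY against N, 6 in Y against N and 8 in EY against E mice, as without it. The Pfkp interaction turned to 0.01 and Ldhb in EY against N to 0.03. The labels state no such pairing, and the 24 pairs of mice with the same number correlated from -0.0426 to 0.0764 after group means were removed, with 0 over 0.1.

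Reads limit Slc2a3, Slc16a7 and Slc16a3 in N mice, whose folds depend on the pseudocount. For 3 Y against 5 N mice the exact tests of shares reach 0.0357 at best, or 0.0812 adjusted. The groups confound genotype with cell make-up, and bulk RNA shows neither protein, flux nor lactate.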
